A study of Mus musculus with 366 samples.

Results

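The aortas of the 25 strains with the highest Elovl3 were compared with those of the 25 strains with the lowest Elovl3, out of 101 strains in all. Members were chosen by the strain mean of 1 Affymetrix probe set for Elovl3, in log2 intensity, and the strain was the unit. The 25 high strains hold 84 arrays and the 25 low strains hold 93 arrays, out of 366 arrays with 1 mouse each. All mice were female, 24 weeks of age, and received chow for 8 weeks and then a Western diet for 16 weeks. Each was the F1 offspring of an inbred strain and C57BL/6J mice with the human APOE-Leiden and CETP transgenes. Both groups thus carry both transgenes and 1 set of C57BL/6J chromosomes from the transgenic parent. By design the groups differ in the inbred parent. Where the transgenes lie, and their copy numbers, are not given in the sources used here. The aorta was taken from the arch to the mid-abdomen and, by the methods of the study, was cleaned of peri-adventitial adipose tissue. Because Elovl3 chose the groups, its values below are a description, and every other gene read on the same arrays shares its sampling with the choice.

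Elovl3 is an enzyme of the endoplasmic reticulum that lengthens saturated and monounsaturated very long chain fatty acids. It is known as a gene of brown adipocytes, where it rises strongly in the cold, and it is also expressed in skin glands and liver. An elongase joins a malonyl unit to an acyl-CoA, and a ketoacyl-CoA reductase (Hsd17b12), a dehydratase (Hacd1 to Hacd4) and an enoyl-CoA reductase (Tecr) complete each cycle. The fat around the thoracic aorta of mice resembles brown fat, and the vessel wall itself is mainly smooth muscle, fibroblasts and endothelium.

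Strain means of Elovl3 were 10.96 ± 0.13 (SD, n = 25) in the high group and 9.68 ± 0.43 (SD, n = 25) in the low group. The high group ran from 10.82 through a median of 10.94 to 11.26, and the low group from 8.17 through a median of 9.84 to 10.12. The means lie 1.29 apart on the log2 scale, which is 2.44-fold on the linear scale. The low group is the more spread out, with a tail of low strains.

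LG/J had the lowest strain mean (8.17), followed by BTBR T<+> tf/J and SJL/J, and BXD13/TyJ had the highest (11.26). At the thresholds, the lowest strain of the high group was I/LnJ at 10.82 and the next strain outside was CBA/J at 10.80. The highest strain of the low group was AKR/J at 10.12 and the next strain outside was BXD18/TyJ at 10.13. Neither threshold falls in a gap of the distribution, and the 51 strains between them had a mean of 10.54 ± 0.19 (SD). None of the 5 progenitors of the recombinant inbred sets is in the high group. C57BL/6J had 10.61, A/J 10.43, C3H/HeJ 10.31, DBA/2J 10.13 and BALB/cJ 9.61. These are the progenitors the paper names, and the related substrain BALB/cByJ had 10.64, among the middle strains.

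**Figure D1:**
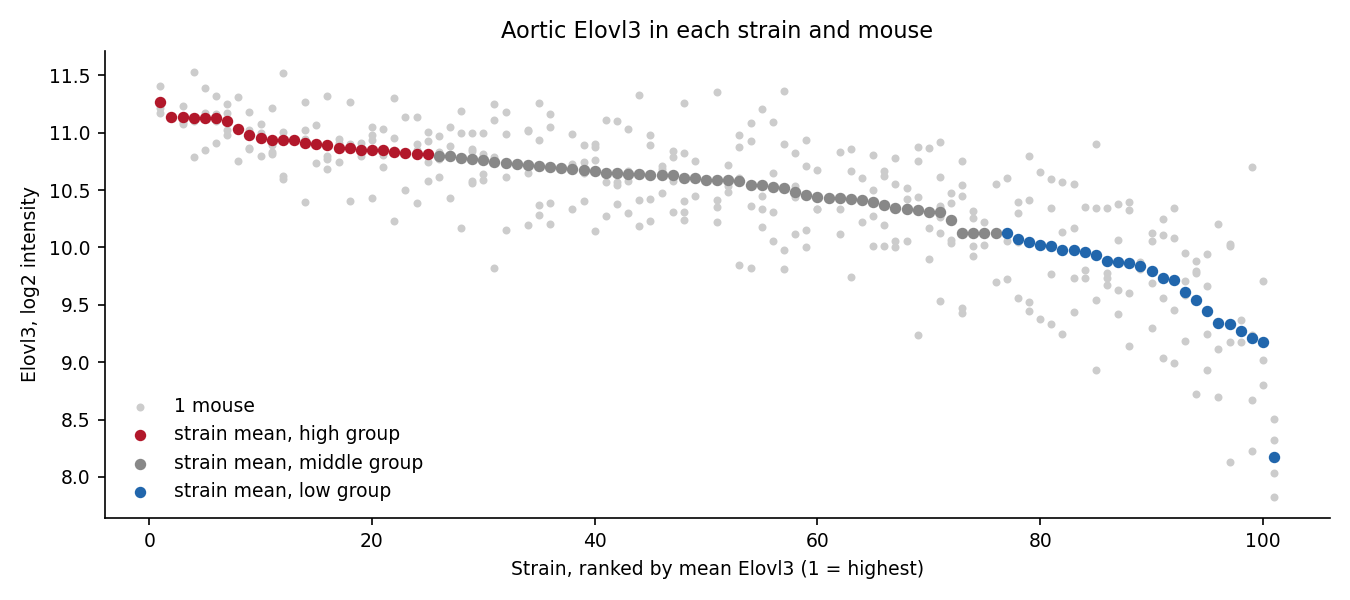
Elovl3 in log2 intensity (y axis) for the 101 strains ranked from highest to lowest mean (x axis). Grey points are single mice, and larger points are strain means of the high group (red, 25 strains), the middle strains (dark grey, 51) and the low group (blue, 25). The low end falls away to 8.17 in LG/J, whereas the high end is nearly flat.

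Of the variance of Elovl3, 56.4% lay among strains (95 strains with at least 2 arrays, 360 arrays). The SD of mice within a strain was 0.43 and the SD of strain means was 0.53, so that single mice of the groups overlap. Elovl3 was therefore also read in mice that had no part in the choice. When the 25 highest and 25 lowest strains were chosen from the odd-numbered mice of each strain, these mice differed by 1.44 between the groups. The even-numbered mice of the same strains differed by 0.95 ± 0.13 (SE, 25 strains per group). In these held-out mice the high group ran from 10.18 to 11.25 with a median of 10.80, and the low group from 8.18 to 10.66 with a median of 9.83. The groups overlapped. None of 100000 random regroupings of these strains gave so wide a difference in means (two-sided permutation test, p = 1e-05, the smallest they give). The permutation treats related strains as exchangeable. With the roles of the mice exchanged, the held-out difference was 1.10 ± 0.14 (SE).

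The groups differ in their make-up of strain sets. Recombinant inbred BXD strains, from C57BL/6J and DBA/2J, supplied 16 of the high and 2 of the low strains. BXD strains carry C57BL/6J segments of their own, so the groups also differ in their share of C57BL/6J genome. Classical inbred strains supplied 2 of the high and 13 of the low strains. The CXB set supplied 1 and 5, the AXB/BXA set 5 and 4, and the BXH set 1 and 1. Strain set and Elovl3 group are thus partly confounded, and many calls were lost with strain set as a covariate. For the gene lists called at all, the calls left with that covariate are given beside the list.

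Across 45140 other probe sets, 7337 (16.3%) differed between the groups at an adjusted p below 0.05, of which 4360 (9.66%) were higher and 2977 (6.6%) lower in the high group. With 1 probe set for each of 17096 genes, 3593 (21%) differed, 2041 (11.9%) higher and 1552 (9.08%) lower. Every list count below stands against these shares over all genes, which were not matched to the lists by intensity. The differences were mostly small, with a median size of 0.21 among called probe sets, and only 39 were called with a difference of at least 1 (9 higher, 30 lower). No probe set other than that of the rule separated all high strains from all low strains. The median difference over all probe sets was 0.01.

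These counts depend on the mice that chose the groups. With groups from odd-numbered mice and values from even-numbered mice, 161 probe sets (0.357%) were called, 144 (0.319%) higher and 17 (0.0377%) lower. With 1 probe set per gene it was 74 genes (0.433%), 66 (0.386%) higher and 8 (0.0468%) lower. Exchanging the mice gave 1568 (3.47%), of which 1212 (2.68%) were higher and 356 (0.789%) lower. When even-numbered mice both chose the groups and gave the values, 2604 were called. With strain set as a covariate 1443 were called, 1159 of them higher. Below, the difference in held-out mice is given beside the main one for the genes the results turn on. These held-out values use groups from odd-numbered mice unless the exchange is named. The exchange, which called more probe sets, was not read for the gene lists.

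The genes that followed Elovl3 most closely over the 101 strain means were Ddhd2 (r = 0.81), Oxsm, Atp6v0a2 and Paqr9 (each 0.77), Plin2 and Hacd2 (each 0.76), C730029A08Rik and Tmed5 (each 0.74), and Sfxn5 and Srxn1 (each 0.73). Each of the 10 also correlated with Elovl3 over the deviations of mice from their strain mean, with r between 0.56 for Srxn1 and 0.79 for Ddhd2. These correlations are descriptions over values that share arrays and relatives.

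Ddhd2, an intracellular lipase, ran from 10.85 through a median of 11.08 to 11.27 in the high strains and from 10.07 through 10.71 to 11.03 in the low strains. The groups overlapped only between 10.85 and 11.03, and the difference was 0.42 ± 0.05 (SE; adjusted p = 7.45e-09). In held-out mice it was 0.28 ± 0.05 (adjusted p = 0.0129). Plin2, the protein that coats lipid droplets, was 0.32 ± 0.04 higher (adjusted p = 1.31e-08) and 0.20 ± 0.04 higher in held-out mice (adjusted p = 0.0226). Oxsm, which serves fatty acid synthesis in mitochondria, was 0.48 ± 0.05 higher (adjusted p = 1.17e-08; held-out 0.31, adjusted p = 0.0226). Srxn1, which repairs oxidized peroxiredoxins, was 0.60 ± 0.07 higher (adjusted p = 7.65e-08) and had the smallest adjusted p of all probe sets in held-out mice (0.52 ± 0.07, adjusted p = 0.000185).

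The enzymes of the elongation cycle and the desaturases had no common direction. Of 9 measured cycle enzymes and desaturases, 2 were higher, Hsd17b12 and Hacd2, and 4 were lower, Hacd4, Fads1, Fads2 and Fads3. These are 22.2% and 44.4%, against 11.9% and 9.08% of all genes. Hsd17b12 ran from 11.38 through a median of 11.58 to 11.71 in high strains and from 10.55 through 11.29 to 11.45 in low strains, with a difference of 0.31 ± 0.04 (adjusted p = 1.02e-06). Only a narrow band from 11.38 to 11.45 was shared. In held-out mice Hsd17b12 differed by 0.18 ± 0.05, short of the threshold (adjusted p = 0.0588).

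Hacd2 was read by a pair of probe sets. The one that follows Elovl3 ran from 7.88 through 8.31 to 8.64 in high strains and from 6.56 through 7.56 to 8.12 in low strains, a difference of 0.78 ± 0.08 (adjusted p = 1.84e-09; held-out 0.45, adjusted p = 0.0495). The brighter one differed by 0.29 ± 0.06 in the same direction (adjusted p = 0.000165). Tecr differed by 0.12 ± 0.06 and Hacd1 by 0.02 ± 0.05, and neither passed (adjusted p = 0.205 and 0.817). Scd1, the main delta-9 desaturase of fat, differed by 0.05 ± 0.02 (adjusted p = 0.0572). The largest of the lower genes was Fads3, at -0.53 ± 0.15 (adjusted p = 0.00929). At the brightest probe set of each gene, Hsd17b12 alone of the 9 was called with strain set as a covariate. The Hacd2 probe set that follows Elovl3 was also called with it (0.61, adjusted p = 0.000463).

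The other elongases did not move as a family. Elovl6, which lengthens 16-carbon acyl chains, was 0.31 ± 0.06 higher (adjusted p = 0.000448), and Elovl5, for polyunsaturated chains, was 0.20 ± 0.04 higher (adjusted p = 0.000798). Elovl1, for saturated very long chains, was lower by -0.43 ± 0.09 (adjusted p = 0.00047), and Elovl7 by -0.34 ± 0.12 (adjusted p = 0.0497). Elovl2 and Elovl4 differed by 0.02 ± 0.03 and 0.17 ± 0.13 and did not pass. Elovl1 and Elovl5 were also called with strain set as a covariate. None of the 6 passed in held-out mice, where Elovl6 came nearest (0.26 ± 0.07, adjusted p = 0.0917). For Elovl7, the low strains reached 5.21 although their median was 3.15 and the high strains ended at 3.49. The groups overlap over nearly the whole range of the high strains.

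Genes of brown adipocytes were higher beside Elovl3, but by little. Of 23 measured thermogenic genes of brown adipocytes, 15 were higher (65.2%, against 11.9% of all genes) and none lower. Their median difference was 0.18 against 0.01 over all genes. The uncoupling protein Ucp1 ran from 12.85 through a median of 13.03 to 13.08 in high strains and from 12.50 through 12.86 to 13.01 in low strains. The high strains sat close together near 13, the low strains were spread below them, and the difference was 0.16 ± 0.03 (adjusted p = 8.4e-05). It was 0.12 ± 0.03 in held-out mice, short of the threshold (adjusted p = 0.0837). Cidea, a lipid droplet protein, was 0.10 ± 0.03 higher (adjusted p = 0.00313) and 0.04 ± 0.03 in held-out mice. Ucp1 and Cidea were bright even in low strains (means of 12.84 and 12.61). Whether brightness narrows such differences was not tested.

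Dio2, which activates thyroid hormone, was 0.72 ± 0.21 higher (adjusted p = 0.014). Letmd1, a mitochondrial protein of brown fat, was 0.28 ± 0.04 higher (adjusted p = 1.65e-06). Cox8b, a cytochrome oxidase subunit, differed by 0.05 ± 0.02 and Cox7a1 by 0.10 ± 0.04, and neither passed (adjusted p = 0.0959 and 0.147). No brown adipocyte gene of the list passed in held-out mice, although all 23 differed upwards there. With strain set as a covariate 3 of the 23 were called, and with the adipocyte score below as a covariate 1 was called.

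Markers that all adipocytes share moved in the same direction. Of 12 measured, 6 were higher and none lower, with a median difference of 0.10. None of the 12 was called in held-out mice or with strain set as a covariate. Fabp4, a fatty acid carrier, and Adipoq, which encodes adiponectin, differed by 0.04 ± 0.03 and 0.04 ± 0.02 and did not pass (adjusted p = 0.35 and 0.238), whereas Pnpla2, the first lipase of triglyceride breakdown, was 0.47 ± 0.10 higher (adjusted p = 0.000515). The mean log2 level of the 12 ran from 10.25 to 10.48 in high strains and from 10.01 to 10.48 in low strains, with medians of 10.37 and 10.27. Its part in the results was not tested. In bulk tissue, fewer cells of a type and less RNA per cell cannot be told apart.

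Markers of white adipocytes had no common direction, and 11.1% were higher and 22.2% lower, against 11.9% and 9.08% of all genes. None was called in held-out mice or with strain set. Of 9 measured, Hoxc8 was higher (0.27 ± 0.07, adjusted p = 0.00288), and Retn and Psat1 were lower. Retn, which encodes resistin, differed by -0.35 ± 0.13 (adjusted p = 0.0478) and Psat1, a serine synthesis enzyme, by -0.40 ± 0.10 (adjusted p = 0.00461). Lep, which encodes leptin, differed by -0.26 ± 0.26 (adjusted p = 0.58).

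Regulators of brown fat and lipid genes were mixed. Of 13 measured, 5 were higher and 2 lower, which is 38.5% and 15.4% against 11.9% and 9.08% of all genes. The higher ones were Rxrg (0.42 ± 0.08), the liver X receptor Nr1h3 (0.34 ± 0.07), Cebpb (0.31 ± 0.06), Ppara (0.24 ± 0.07) and Esrra (0.21 ± 0.05). The thyroid hormone receptor Thra was lower (-0.19 ± 0.03, adjusted p = 6.49e-05), as was Foxc2 (-0.52 ± 0.19, adjusted p = 0.0475). With strain set as a covariate 2 of the 13 were called and the difference of Ppara vanished (adjusted p = 0.993), and none of the 13 passed in held-out mice. The coactivator Ppargc1b differed by 0.14 ± 0.07 and did not pass (adjusted p = 0.13).

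Genes of fat handling were higher over several pathways. Of 15 genes of triglyceride synthesis, storage and lipolysis, 8 were higher and 2 lower, with a median difference of 0.24. These are 53.3% and 13.3%, against 11.9% and 9.08% of all genes. Plin2 and Mgll were also called with strain set as a covariate, and Plin2 in held-out mice. Next to Plin2, the acyltransferase Gpam was 0.30 ± 0.05 higher (adjusted p = 3.64e-05), and Gpd1, which makes glycerol 3-phosphate, was 0.26 ± 0.04 higher. The lower genes were Fitm1 (-0.72 ± 0.21, adjusted p = 0.0142) and the acyltransferase Dgat2 (-0.11 ± 0.04, adjusted p = 0.0459). Pnpla3 had the widest difference in the upward direction, 0.72 ± 0.26, but did not pass (adjusted p = 0.0546).

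Of 17 genes of mitochondrial fatty acid oxidation, 14 were higher and none lower, with a small median difference of 0.08. None of the 17 was called in held-out mice, 2 were called with strain set and 6 with the adipocyte score as a covariate. Cpt2, of the carnitine shuttle, ran from 11.40 through 11.53 to 11.70 in high strains and from 11.02 through 11.28 to 11.54 in low strains. The ranges shared 11.40 to 11.54, and the difference was 0.25 ± 0.03 (adjusted p = 1.17e-07; held-out 0.16, adjusted p = 0.0586). Acadm, the medium-chain acyl-CoA dehydrogenase, was 0.05 ± 0.02 higher (adjusted p = 0.0217), and Pdk4 was level (0.00 ± 0.03).

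In peroxisomes, which shorten very long chain fatty acids, 8 of 12 genes were higher and none lower, with a median of 0.20. Ehhadh, the bifunctional enzyme, was 0.56 ± 0.15 higher (adjusted p = 0.00633), Acot8 was 0.38 ± 0.05 higher and Hsd17b4 was 0.23 ± 0.04 higher. Of the 12, 4 were called with strain set and none in held-out mice. Of 11 acyl-CoA thioesterases 4 were higher (36.4%, against 11.9% of all genes) and none lower, and none was called with strain set or in held-out mice. De novo lipogenesis had 3 of 11 higher (27.3%, against 11.9% of all genes) and none lower. The higher ones were Acsl5 (0.47 ± 0.07), Acacb (0.27 ± 0.05) and Fasn (0.07 ± 0.02). Acacb, the acetyl-CoA carboxylase of mitochondria, also passed in held-out mice (0.20 ± 0.05, adjusted p = 0.0464), and 2 of the 11 passed with strain set.

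Mitochondrial genes outside fat oxidation were higher by less. Of 15 genes of the tricarboxylic acid cycle 9 were higher (60%, against 11.9% of all genes), with a median of 0.07. Of 28 oxidative phosphorylation genes 9 were higher (32.1%), with a median of 0.05. None was lower in either list. In held-out mice none of either list was called, and with strain set 1 tricarboxylic acid cycle gene and none of oxidative phosphorylation was called. Of the creatine cycle, 2 of 4 measured genes were lower. They were the creatine transporter Slc6a8 (-0.50 ± 0.08, adjusted p = 1.11e-05) and Gamt (-0.35 ± 0.08, adjusted p = 0.00135). At these probe sets 1 was called with strain set and none in held-out mice. A second probe set of Slc6a8 (-0.43) passed in held-out mice (-0.42, adjusted p = 0.0289) and with strain set (adjusted p = 0.0446). With the mice exchanged it differed by -0.21 and did not pass (adjusted p = 0.248).

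Cholesterol biosynthesis had the highest median difference of the 28 lists. Of 16 measured genes, 11 were higher and 1 lower, with a median of 0.32. The lists lie at different intensities, and their medians were not adjusted for this. In high strains the median list level was 6.92 here and 12.02 for oxidative phosphorylation. Cyp51, the lanosterol demethylase, ran from 5.97 through a median of 6.68 to 7.13 in high strains and from 5.46 through 5.97 to 6.66 in low strains. Of the high strains, 14 lay above every low strain, and the difference was 0.60 ± 0.09 (adjusted p = 1.61e-06). In held-out mice it was 0.44 ± 0.11 (adjusted p = 0.0439), and with strain set as a covariate 0.70 (adjusted p = 0.000312).

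Hsd17b7, a sterol ketoreductase, was 0.55 ± 0.095 higher (held-out 0.51, adjusted p = 0.0255). Sqle, the squalene epoxidase, was 0.45 ± 0.11 higher (adjusted p = 0.00375) and Hmgcs1, the first committed enzyme, 0.25 ± 0.08 higher (adjusted p = 0.0226). Fdft1, the squalene synthase, was the exception. It ran from 8.73 through 9.17 to 9.52 in high strains and from 9.18 through 9.57 to 10.54 in low strains, so that it was lower by -0.48 ± 0.08 (adjusted p = 1.1e-05; held-out -0.38, adjusted p = 0.0431). Fdft1 did not pass with strain set as a covariate (adjusted p = 0.0711). The list had 7 calls with strain set as a covariate and 11 with the adipocyte score as a covariate, against 3 and 1 for the brown adipocyte list.

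The promoters of 3 genes are printed because Cyp51 and Hsd17b7 carry the sterol result into held-out mice and Ucp1 stands for the brown adipocyte genes. They are the 250 bases before the start of the gene in RefSeq, build GRCm38.p6, 5′ to 3′. Capitals mark any match on either strand to CCAAT (the CCAAT box), TCACNCCAC (a sterol regulatory element) or AGGTCA (the core site of many nuclear receptors). The motifs were picked with the gene results known. Cyp51 lies on the minus strand (chr5:4104698-4104947), Hsd17b7 on the minus strand (chr1:169969206-169969455) and Ucp1 on the plus strand (chr8:83290098-83290347).
Cyp51: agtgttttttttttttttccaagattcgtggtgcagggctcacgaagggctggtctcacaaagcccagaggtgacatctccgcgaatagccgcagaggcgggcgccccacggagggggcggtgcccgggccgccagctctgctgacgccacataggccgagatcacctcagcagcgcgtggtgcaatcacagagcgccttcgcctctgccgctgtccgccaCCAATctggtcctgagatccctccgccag
Hsd17b7: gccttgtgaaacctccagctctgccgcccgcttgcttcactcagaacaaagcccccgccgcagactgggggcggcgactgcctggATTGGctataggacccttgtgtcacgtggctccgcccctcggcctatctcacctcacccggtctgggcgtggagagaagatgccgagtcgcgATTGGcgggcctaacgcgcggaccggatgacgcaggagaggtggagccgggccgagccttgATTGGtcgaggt
Ucp1: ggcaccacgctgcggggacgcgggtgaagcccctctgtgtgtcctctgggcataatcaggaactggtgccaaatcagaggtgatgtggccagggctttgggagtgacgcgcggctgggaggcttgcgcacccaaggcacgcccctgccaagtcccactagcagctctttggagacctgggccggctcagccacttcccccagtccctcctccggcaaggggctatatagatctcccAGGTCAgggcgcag
Cyp51 has 1 CCAAT box, Hsd17b7 has 3, all written as ATTGG, and Ucp1 has none but has 1 match to AGGTCA. Of the 16 measured cholesterol biosynthesis genes 13 have a sequence in the table, and 12 of these (92.3%) hold CCAAT or ATTGG, against 6 of 17 brown adipocyte promoters (35.3%), 6 of 13 smooth muscle promoters (46.2%) and 34.5% of all 27025 promoters. The sterol regulatory element was found in 1 of the 13, Hmgcs1 (7.69%), in none of the brown adipocyte or smooth muscle promoters and in 1.04% of all. AGGTCA or TGACCT was found in 6 of 17 brown adipocyte promoters (35.3%), in 3 of 13 cholesterol biosynthesis promoters (23.1%), in 0 of 13 smooth muscle promoters and in 13.8% of all. A match of letters is no measurement of binding.

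**Figure D2:**
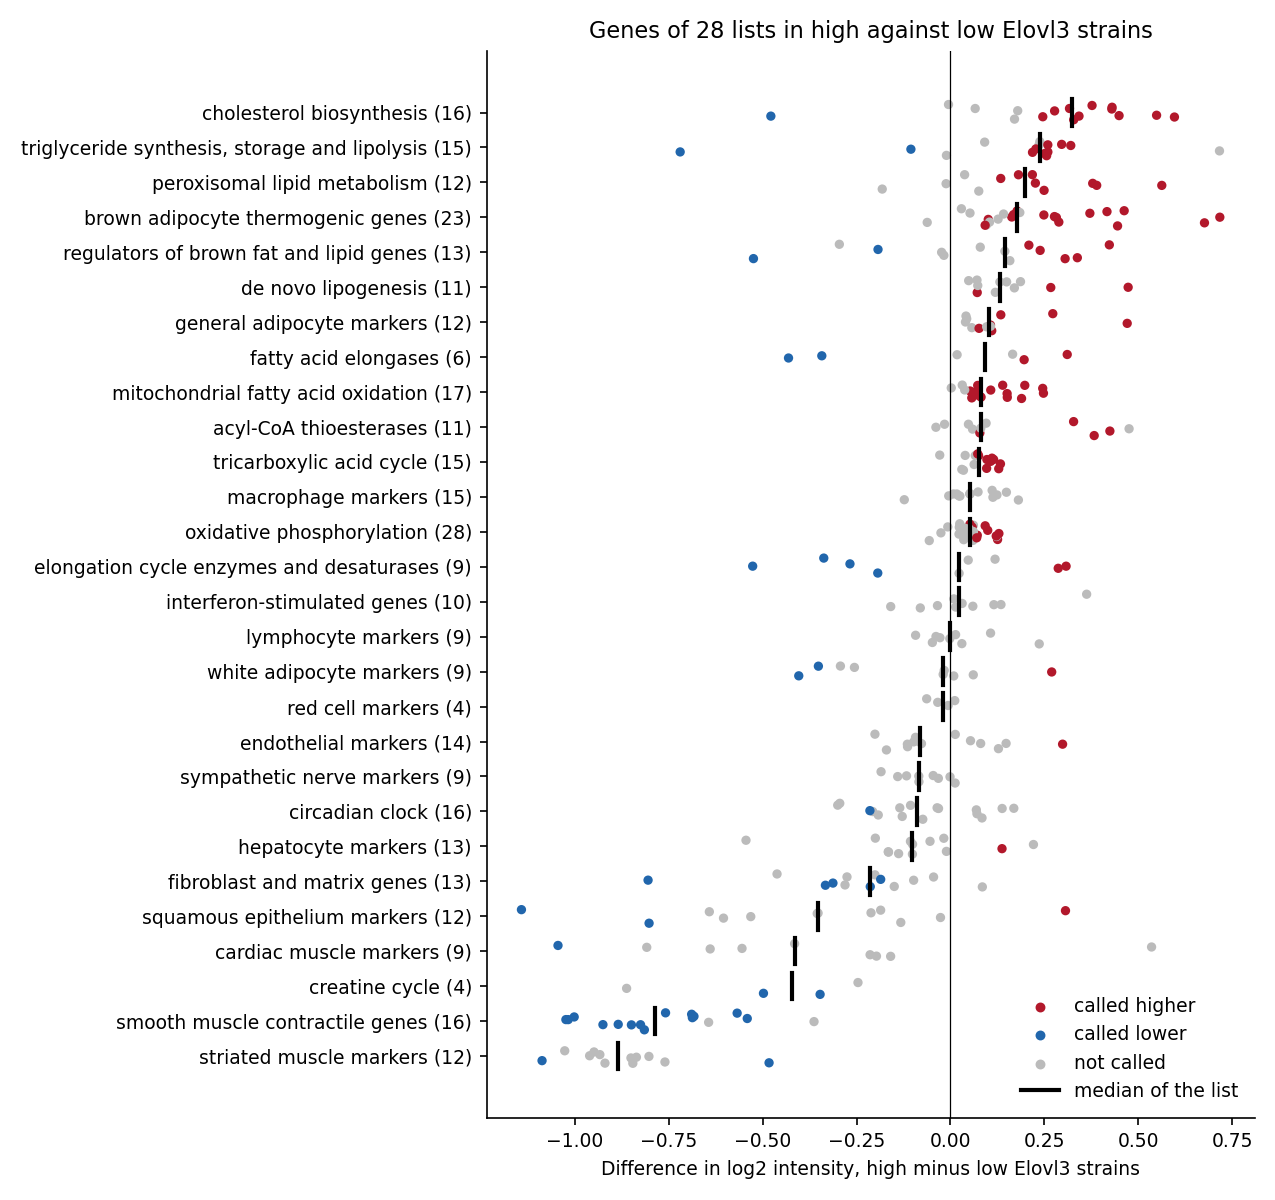
Difference in log2 intensity between high and low Elovl3 strains (x axis) for each measured gene of 28 lists (y axis, number measured in brackets), with 1 probe set per gene. Red points were called higher, blue lower and grey neither, and black bars are list medians. Lists of lipid metabolism and brown adipocytes lie right of 0, with cholesterol biosynthesis at a median of 0.32, and smooth and striated muscle lie left.

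Contractile genes of smooth muscle were lower in the high strains. Of 16 measured, none was higher and 14 were lower, with a median difference of -0.79. Cnn1, the calponin of smooth muscle, ran from 4.36 through a median of 6.64 to 8.54 in high strains and from 4.76 through 7.94 to 9.72 in low strains. Both groups covered most of the whole range, and the group means of 6.61 and 7.61 differed with an SE of 0.36 (adjusted p = 0.048). Myh11, the smooth muscle myosin heavy chain, differed by -1.02 ± 0.37 (adjusted p = 0.0475) and Acta2, smooth muscle actin, by -0.64 ± 0.24 (adjusted p = 0.0535). Held-out mice gave -0.55 ± 0.41 for Cnn1 and -0.59 ± 0.40 for Myh11, and no gene of the list passed there. With strain set as a covariate 1 of the 16 was called.

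The mean log2 level of these 16 genes ran from 6.31 to 8.74 in high strains, with a median of 7.54, and from 6.50 to 9.60 in low strains, with a median of 8.51. It moves with the Elovl3 group, and its part in the other results was not tested. With it as a covariate, 9 of 23 brown adipocyte genes and 12 of 16 cholesterol genes were called.

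Of 13 fibroblast and matrix genes 5 were lower (38.5%, against 9.08% of all genes). Among them were Eln, elastin (-0.81 ± 0.27, adjusted p = 0.029), and Col3a1 (-0.33 ± 0.09, adjusted p = 0.00441). All 12 striated muscle markers lay below 0, with a median of -0.89, but only Ckm and Myl1 (16.7%) passed. No fibroblast, striated or cardiac muscle gene of these lists was called in held-out mice or with strain set. The mean level of the striated muscle markers covered 3.83 to 9.50 in high strains and 3.94 to 9.85 in low strains. Of 9 cardiac markers Ttn alone was lower (11.1%, near the 9.08% of all genes). At the probe set used for each gene, none of the macrophage (15), lymphocyte (9), interferon-stimulated (10), sympathetic nerve (9) or red cell (4) genes was called by limma. Of the 3 probe sets of the haemoglobin gene Hba-a1, 1 was called lower (-0.95 ± 0.29, adjusted p = 0.015) and 2 were not called.

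Of 14 endothelial markers, Nos3, the endothelial nitric oxide synthase, alone was called (7.14% higher, below the 11.9% of all genes). It ran from 7.03 through 7.40 to 7.60 in high strains and from 6.71 through 7.05 to 7.48 in low strains, 0.30 ± 0.06 higher (adjusted p = 0.0001). Pecam1 and Cdh5, of endothelial junctions, differed by -0.17 ± 0.08 and -0.09 ± 0.10 and did not pass. Of 13 hepatocyte markers Serpina1a alone was called (7.69% higher, below the 11.9% of all genes). Serpina1a was 0.14 ± 0.05 higher (adjusted p = 0.04), while Alb reached 8.25 in a low strain against a median of 2.62. Of 12 squamous epithelium markers, Krt10 was higher (0.31 ± 0.05, adjusted p = 2.42e-05), and Dsp and Perp were lower, so that 8.33% were higher and 16.7% lower against 11.9% and 9.08% of all genes. Of 16 clock genes Nr1d2 alone passed, and it was lower (6.25%, below the 9.08% of all genes). Of these endothelial, hepatocyte, squamous and clock genes, Nos3 and Krt10 were called with strain set as a covariate and none in held-out mice.

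**Figure D3:**
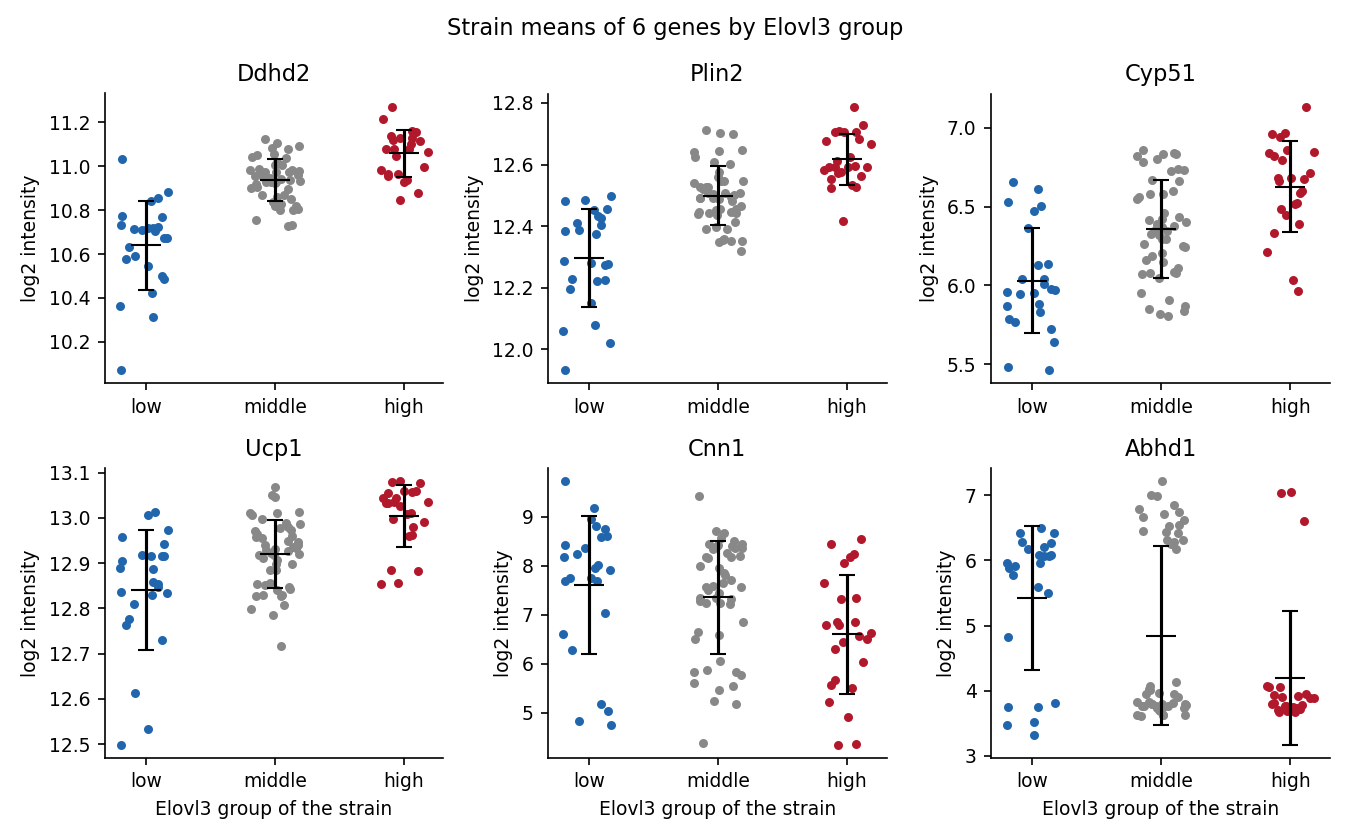
Strain means in log2 intensity (y axes) of 6 genes in the low (25), middle (51) and high (25) Elovl3 groups (x axes). Bars are mean ± SD over strains. The means of Ddhd2, Plin2, Cyp51 and Ucp1 are higher from low to middle to high, with overlap, Cnn1 is spread over most of its range in each group, and Abhd1 lies mostly near 4 and near 6 to 7.

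The widest upward differences were in genes of several kinds. Cxcl14, a chemokine, ran from 4.98 through 7.11 to 9.89 in high strains and from 3.71 through 5.61 to 9.35 in low strains. The ranges nearly coincided, and the difference was 1.63 ± 0.48 (adjusted p = 0.0143; held-out 1.08 ± 0.48, adjusted p = 0.387). Cxcl14 did not pass with strain set (adjusted p = 0.35) or the adipocyte score (adjusted p = 0.203) as a covariate. Ffar4, a receptor of long-chain fatty acids, was 1.32 ± 0.21 higher (adjusted p = 8.89e-06; held-out 0.95 ± 0.24, adjusted p = 0.0584). Ncan, which encodes the proteoglycan neurocan, was 1.32 ± 0.33 higher (adjusted p = 0.00338) and did not pass with strain set (adjusted p = 0.127) or the adipocyte score (adjusted p = 0.126).

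Tfr2, the second transferrin receptor, ran from 6.21 through 6.68 to 7.60 in high strains and from 4.44 through 5.64 to 7.26 in low strains. The median low strain lay below every high strain. The difference was 1.12 ± 0.13 (adjusted p = 5.15e-08) and 0.90 ± 0.15 in held-out mice (adjusted p = 0.00191). Hephl1, a copper oxidase of iron handling, was 1.03 ± 0.11 higher (adjusted p = 7.45e-09; held-out 0.78, adjusted p = 0.0226). Cad, which starts pyrimidine synthesis, was 0.86 ± 0.10 higher (adjusted p = 3.58e-08; held-out 0.63, adjusted p = 0.00183). Tfr2, Hephl1 and Cad also passed with strain set, adipocyte score or smooth muscle score as the covariate.

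Next to these, Mfsd2a (1.04), Ccdc122 (1.03), Orm3 (1.01), St3gal5 (0.92), Noct (0.90), Sgk2 (0.90), Slc25a34 (0.90), Adcy3 (0.88) and Ttc25 (0.88) complete the 15 widest, of which Ccdc122 and Orm3 passed in held-out mice at the probe set with the widest difference. Of these 9, Ccdc122 (adjusted p = 0.0011) and Adcy3 (adjusted p = 0.00171) passed with strain set as a covariate, and Orm3 (adjusted p = 0.114) did not. Adcy3, an adenylyl cyclase of the cAMP pathway, was 0.52 ± 0.14 higher in held-out mice at this probe set (adjusted p = 0.083) and 0.54 higher at a second one, which passed (adjusted p = 0.0354). A second probe set of St3gal5 passed there too (0.62, adjusted p = 0.0431), but not with strain set (adjusted p = 0.0773).

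Of the 15 widest downward differences several were in genes of muscle, among them Mylk4 (-1.34 ± 0.26, adjusted p = 0.000144), Tcap, a titin cap protein (-1.18 ± 0.28), Ldb3 (-1.10 ± 0.23), Pdlim3 (-1.09 ± 0.19) and Ckm, muscle creatine kinase (-1.09 ± 0.37). Sost, which encodes sclerostin, a Wnt inhibitor also made by vascular smooth muscle, differed by -1.13 ± 0.39 (adjusted p = 0.0375). Of the 15 only Fos, an immediate early gene, passed in held-out mice. Fos ran from 4.13 through 5.71 to 7.63 in high strains and from 5.04 through 6.82 to 8.36 in low strains, and differed by -1.05 ± 0.21 (adjusted p = 0.000321) and by -1.02 ± 0.24 in held-out mice (adjusted p = 0.0371). With the roles of the mice exchanged it differed by -0.77 and did not pass (adjusted p = 0.0845).

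Abhd1, of a family of hydrolases, was unlike the others. It ran from 3.67 through a median of 3.80 to 7.05 in high strains and from 3.32 through 5.96 to 6.49 in low strains, lower by -1.23 ± 0.29 (adjusted p = 0.00213). Its strain means lie mostly near 4 and near 6 to 7, and 93.6% of its variance lay among strains. Over strain means it correlated with Elovl3 at r = -0.28 and within strains at r = 0.53, and with strain set as a covariate the difference was -0.28 (adjusted p = 0.766).

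**Figure D4:**
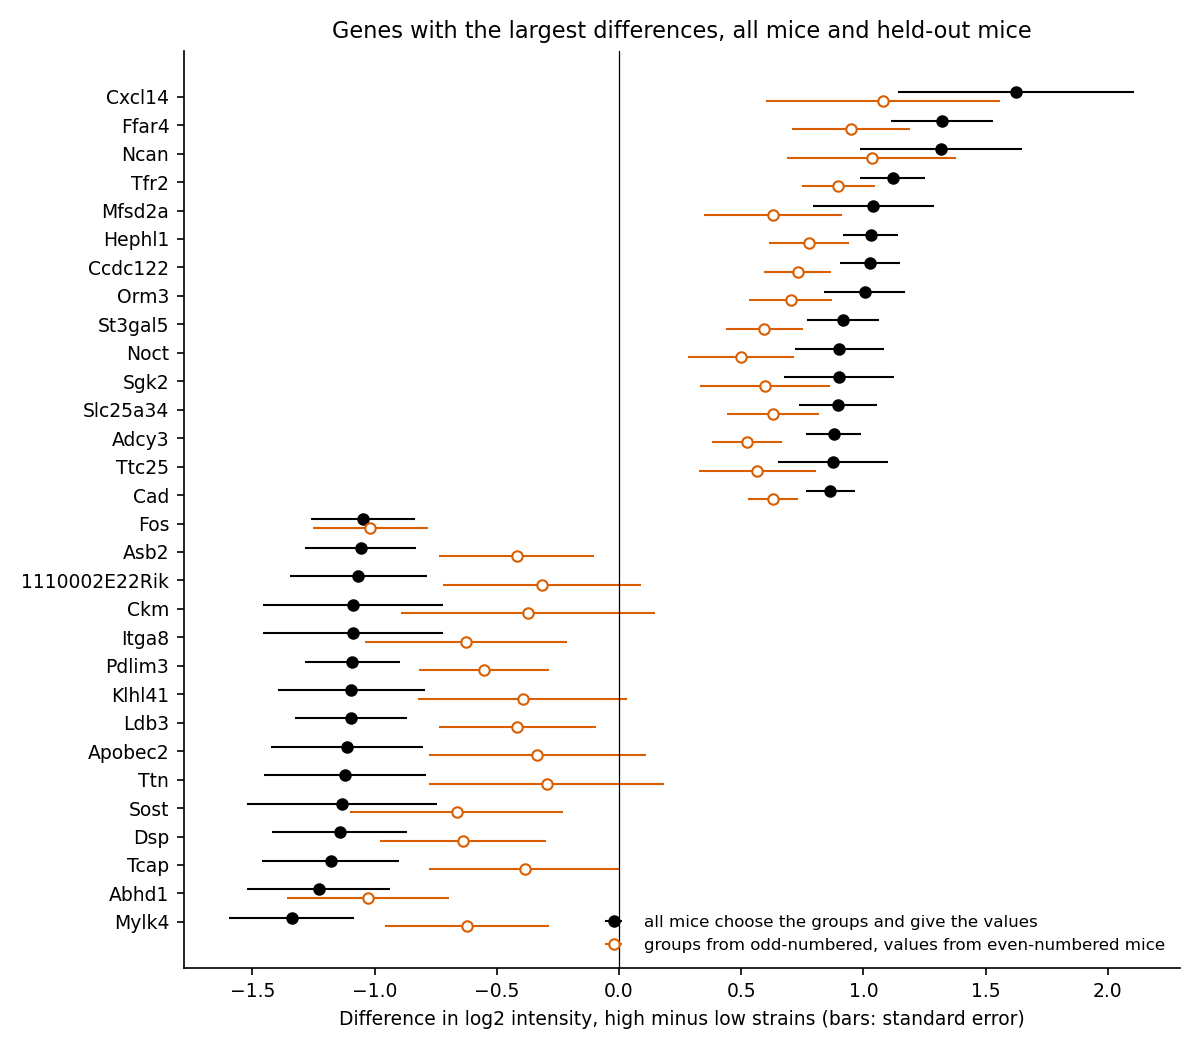
Difference in log2 intensity between high and low strains with its standard error (x axis) for the 15 widest upward and 15 widest downward genes (y axis). Black points use all mice, and orange open points use groups from odd-numbered mice and values from even-numbered mice. Orange points lie nearer 0 for each of the 30, least so for Fos (-1.05 and -1.02) and more so for muscle genes such as Tcap (-1.18 and -0.39).

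Elovl3 lies on chromosome 19 (46131897 to 46135694, GRCm38.p6), and genes around it were called about as often as genes elsewhere. Within 2 Mb of its start 65 genes were measured, and 9 were higher and 4 lower, so that 20% were called against 21% of all genes. Within 5 Mb it was 14 higher and 7 lower of 108 (19.4%). The largest difference within 2 Mb was that of Slf2, a factor of chromosome maintenance, at -0.37 ± 0.05 (adjusted p = 2.18e-06; held-out -0.21, adjusted p = 0.21). The other lower genes were Col17a1, Taf5 and Stn1. The higher ones were Fbxl15 (0.28 ± 0.06), Kazald1 (0.27), Nolc1 (0.23), 2310034G01Rik (0.22), Twnk (0.21), Poll (0.18), Mrpl43 (0.17), Dpcd (0.12) and Atp5md (0.08). None of these 13 passed in held-out mice.

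**Figure D5:**
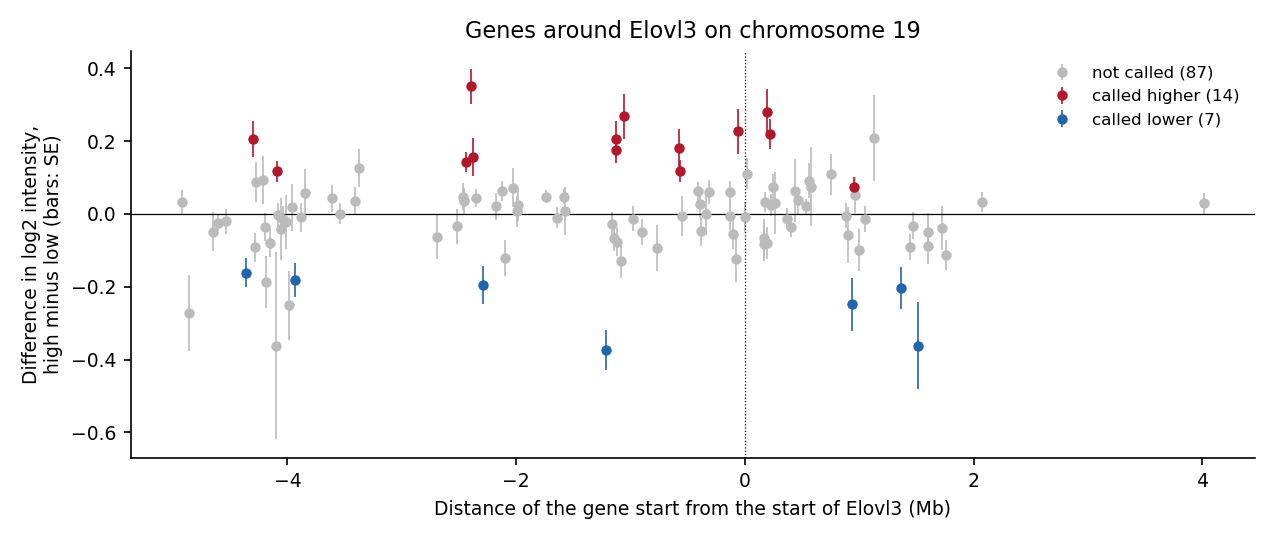
Difference in log2 intensity between high and low strains with its standard error (y axis) for 108 genes within 5 Mb of Elovl3, against the distance of the gene start from that of Elovl3 in Mb (x axis). Red points were called higher (14), blue lower (7) and grey neither (87). Called genes of both directions lie on both sides of Elovl3, and the largest called differences are 0.35 and -0.37.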

How the data were processed

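Aortic RNA of 366 female Ath-HMDP mice from 101 strains was hybridized to Affymetrix arrays, 1 mouse each. Its array is called HT_MG-430A by the submitters and HT-MG_430 PM in the methods. The deposited values are log2 intensities, which the authors made with GCOS and RMA by the submitters' processing notes, with no version given. Each column was matched to its mouse and strain through its label, and 0 columns were left unmapped. The labels give no batch or date. Mouse numbers within a strain follow the order of the records and pair nothing. Array medians were 3.17 to 3.40. Precision is limited by how many mice stand behind a strain mean: 87 strains have 3 or more arrays, 8 have 2 and 6 have 1.

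Strain means of the log2 values were taken, and the groups were compared with limma 3.58.1 in R 4.3.3 (lmFit and eBayes, two-sided) with Benjamini-Hochberg adjustment over 45140 probe sets, leaving out that of the rule, at a threshold of 0.05. All adjusted p-values come from this model. Intensities of different probe sets are not compared. Of 45141 probe sets 28898 carry 1 gene symbol, 551 several and 15692 none, and 99.3% of those with 1 symbol matched RefSeq genes of GRCm38.p6. The gene lists (28) use the probe set with the highest mean of each gene, and 52 listed genes were not analysed here. Named genes are the 15 widest called differences in each direction, the 10 closest to Elovl3, the elongases, called genes within 2 Mb of Elovl3, and the first 3 measured and the highest and lowest members of each list. Other genes named were chosen after their values were seen. Among 74 named genes with several probe sets, none was called in both directions. The members and lists were chosen with earlier results of these data known.

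For held-out mice, strains with 2 or more arrays were ranked on odd-numbered mice, and all genes were read in even-numbered mice. Elovl3 there was tested by permuting strains 100000 times. Alternatives were the strain median, 3 or more arrays, weights, strain set, adipocyte score, arrays high in hepatocyte or striated muscle markers left out, 20 or 33 strains per group, regression over all strains, strain as a random block, array centring, brighter probe sets, another eBayes setting and each strain left out. The smooth muscle score, both scores, AXB/BXA strains alone and even-numbered mice alone were added after the data were seen. The code was tested on simulated data.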

Additional observations from a re-analysis of the deposited data

Results flagged for a closer look

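In 4 of the 75 strains with 4 to 10 arrays, 1 mouse stood far from the others in Elovl3 (log2 intensity), against about 1 in 20 that chance gives. The group of the strain is given beside each value. In BXD1/TyJ (low group) a mouse had 8.72, against 9.78 to 9.88 in the other 3. In CXB8/HiAJ (low group) a mouse had 10.34, against 9.67 to 9.77. In CXB3/ByJ (high group) a mouse had 11.32, against 10.69 to 10.79. In BXD5/TyJ (middle) a mouse had 11.36, against 10.23 to 10.41.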

How the results depend on the processing

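The number of called probe sets (7337, of which 4360 higher and 2977 lower) stayed within 1.5 times under the strain median, weights, hepatocyte-high arrays left out (34 arrays, 12 in low and 4 in high strains), 33 strains per group, regression, the random block, array centring, brighter probe sets and the other eBayes setting; no array was high in striated muscle markers. It moved to 4810 (1667 lower) with 3 or more arrays per strain, and with 20 strains per group the lower ones moved to 1799. The fit to brighter probe sets left out every one at or below the median brightness. Its 7258 calls (4151 higher, 3107 lower) thus came from fewer tests, and the share called exceeded the 16.3% of the main fit. Strain set as a covariate left 1443 (1159 higher, 284 lower) and the adipocyte score 1439 (1064 higher, 375 lower). Groups from odd-numbered and values from even-numbered mice gave 161 (144 higher, 17 lower), which moved to 1568 with the mice exchanged, 77 in strains with 4 or more arrays and 14 with the adipocyte score. Of the settings added after the data were seen, even-numbered mice alone gave 2604 (2018 higher, 586 lower), the smooth muscle score 4184 (1262 lower), both scores 1047 (794 higher, 253 lower) and AXB/BXA strains alone 893 (327 higher, 566 lower). Leaving out each strain in turn gave 6487 (without LG/J) to 8372 (without BXD75/RwwJ), with 3928 to 4657 higher and 2559 to 3759 lower. Of 176 named values, 108 stayed on the same side of the threshold with strain set and 94 in held-out mice. These counts include values called in neither fit, whose direction was not compared. Turns of sign, here and below, were counted only for values called in the main fit or in the other fit. With the smooth muscle score, which holds Acta2, Cnn1 and Myh11 themselves, the sign turned for Sost (0.27), Itga8 (0.22), Acta2 (0.22), Cnn1 (0.32), Myh11 (0.32), Eln (0.11) and Foxc2 (0.084). With both scores it turned for Sost (0.21), Itga8 (0.14), Cnn1 (0.22), Myh11 (0.22) and Eln (0.018). In AXB/BXA strains alone it turned for Ckm (0.59), Apobec2 (0.14), Ttn (0.054) and Dio2 (-0.15), and with strain set for Ppara (-0.0037). The cause was not tested. No paired analysis was possible because mouse numbers follow the order of the records and strains do not pair across groups. Related strains were treated as independent except where strain set was a covariate, and 6 strains rest on 1 array each.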

Other observations

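Of the 112 genes called in held-out mice at any probe set with 1 symbol, 100 were higher and 12 lower in high Elovl3 strains. The 74 genes given earlier (0.433%) count only 1 probe set per gene, and over all probe sets 0.357% were called. The genes named here were picked singly after their values were seen. Lipa, the acid lipase of lysosomes, was higher in held-out mice by 0.54 and 0.37 at its 2 probe sets (adjusted p = 0.0264 and 0.0226). Atp6v0a2 and Atp6v1d, subunits of the vacuolar proton pump, were higher by 0.31 (adjusted p = 0.00669) and 0.19 (adjusted p = 0.0226), and Creg1 by 0.26 (adjusted p = 0.0182). Over all mice with strain set as a covariate, each of these passed.

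Zfp386, a zinc finger gene, was higher at both of its called probe sets by 0.67 and 0.45 in held-out mice (adjusted p = 0.00276 for each), and 75.1% and 68.1% of its variance lay among strains. Ccn1, an early response gene, was lower by -0.77 in held-out mice (adjusted p = 0.0129), and Bcl7a, a chromatin remodelling subunit, by -0.26 (adjusted p = 0.00688). Apln, which encodes the peptide apelin, was higher by 0.41 (adjusted p = 0.0363), and over all mice with strain set as a covariate it did not pass (adjusted p = 0.0918).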
